A study of Mus musculus with 69 samples.

Results

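The response to IL-4 of bone marrow-derived macrophages (BMDMs) was compared between 2 inbred mouse strains, BALB (BALB/cJ) and C57 (C57BL/6J), as the change with IL-4 in BALB minus the change with IL-4 in C57. The comparison rests on 12 of the 29 RNA-seq libraries of the 5-strain expression table, and on 12 of 69 samples of the series. There were 4 groups with 3 libraries each, namely C57 and BALB BMDMs under basal conditions, without IL-4, and C57 and BALB BMDMs after 24 hours of IL-4 at 20 ng/ml. All BMDMs came from female mice of 8 to 12 weeks, and their bone marrow had been cultured for 7 days with M-CSF. No group carries an engineered allele. The members are all 11907 genes with at least 1 TPM (reads of a gene scaled to its length and to the library) in at least 2 of the 29 libraries, out of 24537 genes listed. The replicate libraries are described as biological, but the labels do not tie them to single mice, so p-values measure the spread between libraries.

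IL-4 is the cytokine of type 2 immunity. It binds a receptor that holds the IL-4 receptor alpha chain, and the kinases bound there phosphorylate STAT6, which enters the nucleus and binds DNA at palindromes of TTC and GAA. Macrophages then take on the alternatively activated state, known for arginase, chitinase-like proteins, the mannose receptor and chemokines that draw monocytes and eosinophils.

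Depth ran from 7.02 M tags to 21.3 M tags over the 12 libraries (M, 1e+06), and the lowest Pearson r between replicates of a group, across genes, was 0.99. Genes of high GC content stood apart in some of these libraries. Over the 268 genes with a mean of at least 5 TPM whose longest transcript has a GC content over 60%, the median deviation from the 12-library mean on the log2 scale was between -0.06 and -0.25 in the 3 basal BALB libraries and between 0.05 and 0.17 in the 3 basal C57 libraries. It was -0.09 in BALB IL-4 replicate 1, and 0.10 and 0.05 in BALB IL-4 replicates 2 and 3. All 10 macrophage markers were expressed in all 4 groups, with a sum between 18293 and 31660 TPM in a library. The sum of 11 neutrophil and precursor markers was between 113 and 140 TPM in basal C57 libraries and between 57.6 and 63.9 TPM in basal BALB libraries, and between 20.9 and 26.7 TPM in the 6 IL-4 libraries. The marker lists of dendritic cells, T and NK cells, B cells, mast cells, eosinophils, stromal cells and erythroid cells each had a sum of at most 7.58 TPM in any library.

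A total of 102 genes had a smaller response in BALB than in C57, and 75 had a larger one (difference over 2-fold on the log2(TPM + 1) scale, adjusted p under 0.05, limma interaction contrast). These are 0.857% and 0.63% of the genes tested. Without the 2-fold condition the response was smaller in 1236 genes and larger in 647, or 10.4% and 5.43%. This lean depended on the scaling, with 843 and 929 after rescaling by the median ratio and 983 and 916 after quantile normalization. The median difference over all genes tested was -0.07 on the log2 scale. In bulk RNA, fewer cells of a type and less RNA per cell cannot be told apart. In all 102 genes with a smaller response, the 3 BALB responses lay below the 3 C57 responses, and in 74 of the 75 genes with a larger response they lay above. Over all genes tested the same was seen in 27.1% and 13.2%. Each response here is 1 IL-4 library minus the basal mean of its strain, so the 3 share their basal value. As the same libraries made the calls, this separation is a description and no independent support. At the threshold, 36 genes lay between 1 and 1.1 and were called, and 73 genes that passed the p-value lay between 0.9 and 1.

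**Figure D1:**
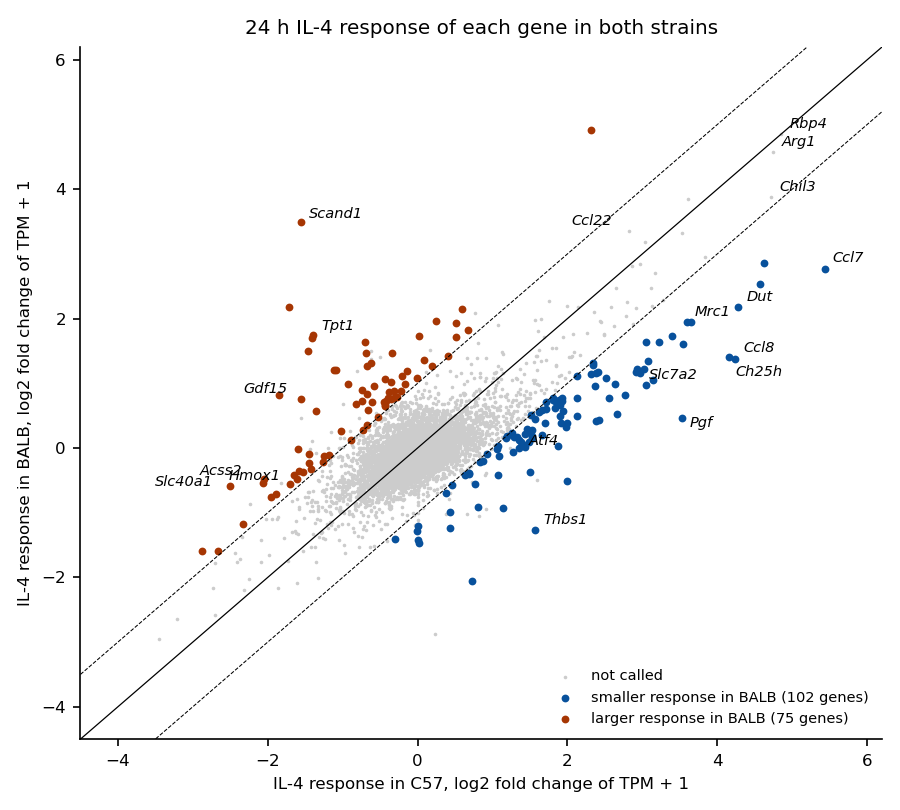
The IL-4 response of each of the 11907 genes tested in C57 (x axis) and in BALB (y axis), both as log2 fold change of TPM + 1. The solid line marks equal responses and the dashed lines a 2-fold difference; 102 genes (blue) lie below and 75 (red) above, and Arg1 and Rbp4 lie near the solid line.

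Most of the genes with a smaller response were genes that IL-4 induced in C57. Of the 102 genes, 83 were induced more than 2-fold in C57, against 2.28% of all genes tested. Of these 83 genes, 25 were also induced more than 2-fold in BALB (1.27% of all genes tested were), 57 passed no threshold there and 1 was repressed. In the other 19 genes the C57 response was not called, and in 7 of them the gene was repressed in BALB (0.815% of all). The genes with a larger response divided differently. Of the 75 genes, 28 were repressed more than 2-fold in C57 (1.53% of all), and 21 of these had no call in BALB. In another 21 genes the response was called only in BALB, where they were induced. As the same libraries define both the difference and the responses, these counts are a description.

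Chemokines of monocytes were the group in which every member tested had a smaller response. Ccl2, Ccl7, Ccl12 and Ccl8 encode ligands of monocyte chemokine receptors and lie in 1 cluster on chromosome 11, from 82035577 to 82116799 (mm10, plus strand). Their median difference was -2.35, against -0.07 over all genes. Ccl7 was at 6.31, 6.30 and 5.74 TPM in the basal C57 libraries and at 330.5, 322 and 269.7 TPM after IL-4. In BALB it was at 1.33, 0.84 and 0.92 TPM and at 14.3, 11.6 and 12.6 TPM. IL-4 and basal libraries did not overlap in either strain, and all BALB libraries lay below the C57 libraries of the same condition. The log2 fold change was 5.43 in C57 and 2.77 in BALB, a difference of -2.66 (standard error 0.13, adjusted p = 3.8e-13 from limma).

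Ccl8, a chemokine of monocytes and eosinophils, was at 62.2, 56.7 and 61.9 TPM in basal C57 libraries, and at 1102, 1272 and 1088 TPM after IL-4. In BALB the levels were 39.8, 37.2 and 37.0 TPM before and 102, 95.4 and 105 TPM after IL-4. Thus the lowest C57 library with IL-4 was above every BALB library by a wide margin, while the basal levels lay closer. The difference in response was -2.85 (standard error 0.18, adjusted p = 3.0e-11 from limma). In the time-course libraries, given below, Ccl8 rose by much less in C57. Ccl12 went from 3.64, 2.20 and 3.48 TPM to 101, 102 and 84.6 TPM in C57, and from 0.28, 0.50 and 0.52 TPM to 6.99, 8.30 and 6.73 TPM in BALB, a difference of -2.03 (standard error 0.21). Ccl2 went from 9.99, 4.79 and 8.41 TPM to 114, 118 and 85.9 TPM in C57, and from 1.88, 1.92 and 1.26 TPM to 10.6, 8.52 and 8.71 TPM in BALB, a difference of -1.71 (standard error 0.25, adjusted p = 2.5e-05 from limma). All 4 genes thus responded to IL-4 in BALB, from a lower basal level and by less. The chemokines of type 2 immunity were not uniform. Ccl24, an eosinophil chemokine, had a smaller response in BALB by 1.76 on the log2 scale (BALB minus C57 -1.76, adjusted p = 1.3e-06), whereas Ccl17 and Ccl22, ligands of the receptor CCR4, had differences of 0.27 and 0.53 that did not pass the test (adjusted p = 0.41 and 0.10, limma). For the difference in response of Ccl22 both the call and the sign depended on the processing. It was -0.66 with a pseudocount of 0.1 TPM (adjusted p = 0.25 from limma) and 1.09 with 5 TPM (adjusted p = 5.9e-09), 0.70 with quantile normalization (adjusted p = 0.041) and 0.71 without BALB basal replicate 2 (adjusted p = 0.021). Ccl22 was higher in BALB in both conditions, at 2.42, 3.54 and 1.82 TPM before and 34.0, 37.1 and 34.3 TPM after IL-4, against 0.29, 0.18 and 0.44 TPM and 8.10, 7.92 and 8.73 TPM in C57.

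Of 32 effectors of alternative activation tested, 9 had a smaller response in BALB, against 0.857% of all genes, and none a larger one, with a median difference of -0.73. At an adjusted p alone the response was smaller in 20, against 10.4% of all genes, and larger in 0 of them, and no call was made in the other 12. Ch25h, the enzyme that makes 25-hydroxycholesterol, was at 0.65, 0.74 and 0.73 TPM in basal C57 libraries and at 29.7, 30.0 and 28.6 TPM after IL-4. In BALB it was at 0.17, 0.05 and 0.14 TPM, and at 2.17, 1.98 and 1.75 TPM after IL-4. The 3 C57 IL-4 libraries lay far above the other 9. The difference in response was -2.75 (standard error 0.15, adjusted p = 2.0e-12 from limma). Because basal levels were below 1 TPM, the size of such a difference depends on the pseudocount.

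Mrc1, the mannose receptor CD206 and a surface marker of alternatively activated macrophages, was at 15.02, 15.9 and 13.9 TPM in basal C57 and at 27.1, 22.9 and 23.4 TPM in basal BALB. After IL-4 it was at 204, 199 and 172 TPM in C57 and at 106, 85.5 and 101 TPM in BALB. The order of the strains was thus opposite before and after IL-4, with no overlap in either condition. Its difference in response was -1.64 (standard error 0.12, adjusted p = 4.8e-10 from limma). Slc7a2, a transporter of cationic amino acids such as arginine, also had the higher basal level in BALB, and its response differed by -1.81 (standard error 0.10). Atp6v0d2, a subunit of the vacuolar proton pump, and Gatm, an enzyme that uses arginine, ended at like levels in both strains after IL-4, with differences of the levels of -0.19 and 0.07 on the log2 scale, and their responses differed by -1.18 and -1.01. Flt1, the receptor of VEGF-A and PlGF, went from 0.13, 0.16 and 0.23 TPM to 8.48, 7.82 and 7.49 TPM in C57, and from 0.01, 0.01 and 0.03 TPM to 1.42, 1.24 and 1.47 TPM in BALB. On the log2(TPM + 1) scale its response was smaller in BALB by 1.71 (BALB minus C57 -1.71), but as a ratio of mean TPM it was 45.8 in C57 and 79.3 in BALB, where the basal level was close to 0. Chil4 is nearly identical to Chil3 in sequence, so its difference of -1.66 is uncertain.

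**Figure D2:**
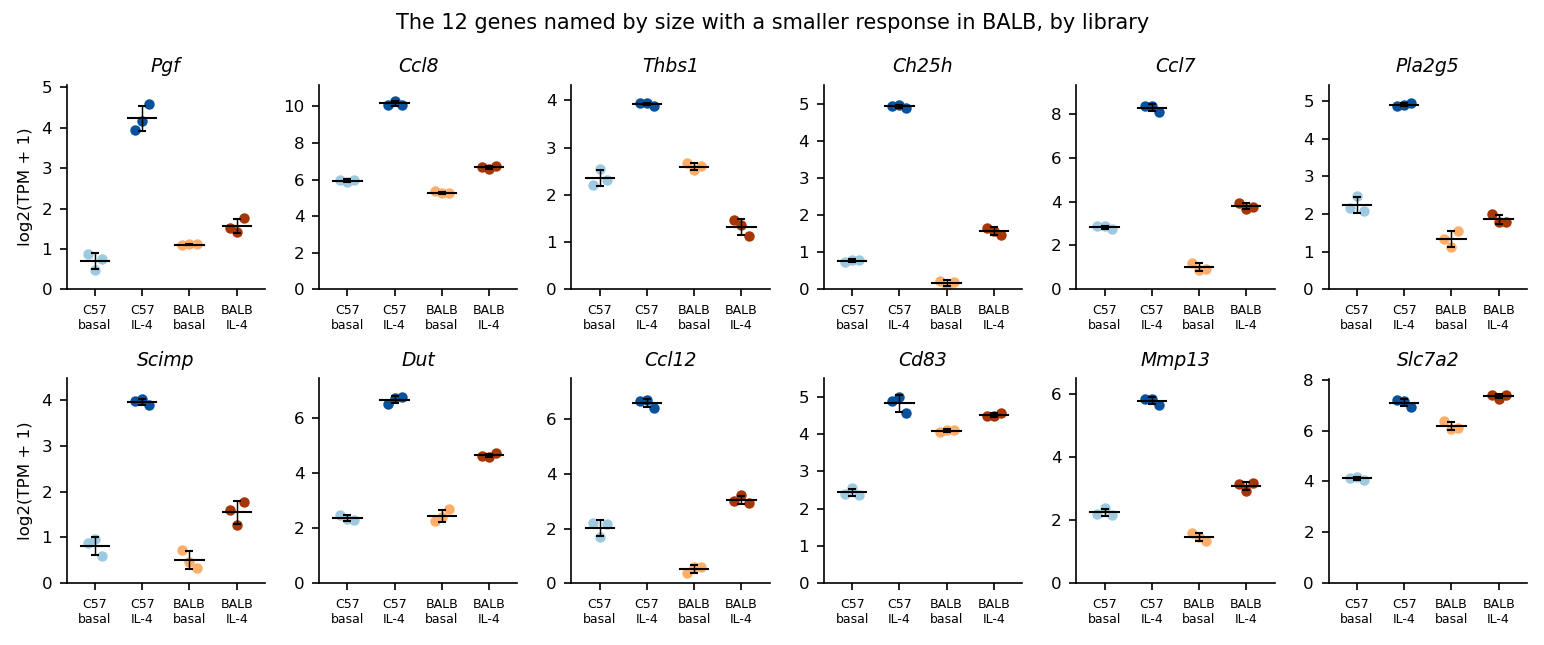
Expression as log2(TPM + 1) of the 12 genes with the largest smaller response in BALB, in each of the 12 libraries (points; bars, mean and SD of 3 libraries; each panel starts at 0). In 11 of the 12 panels the C57 IL-4 libraries are the highest, and in Slc7a2 the BALB IL-4 libraries are.

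Arginase and several other hallmark genes were not called, and some of them passed the p-value with differences inside 2-fold. Arg1, which turns arginine into ornithine, went from 124, 117 and 137 TPM to 3340, 3507 and 3386 TPM in C57, and from 59.7, 60.6 and 63.1 TPM to 1408, 1459 and 1556 TPM in BALB. BALB was lower in both conditions, and the log2 fold changes of 4.75 and 4.57 differed by -0.18 (standard error 0.23, adjusted p = 0.67 from limma). Rbp4, the carrier of retinol in blood, had a log2 fold change of 4.85 in both strains, but this likeness belongs to the pseudocount of 1 TPM. Its basal level was 0.10, 0.00 and 0.21 TPM in C57 and 1.47, 0.94 and 0.99 TPM in BALB, and the ratio of mean TPM was 298 in C57 and 53.2 in BALB. With a pseudocount of 0.1 TPM the difference was -1.76, and with 5 TPM it was 0.60. Chil3, a chitinase-like protein, was at 63.6, 71.2 and 61.3 TPM in basal C57 and at 11.8, 12.5 and 11.0 TPM in basal BALB, and after IL-4 at 1726, 1855 and 1667 TPM and at 199, 172 and 189 TPM. Its response differed by -0.85 (adjusted p = 0.068 from limma), which did not pass in the 29-library model and passed with only the 12 libraries (adjusted p = 5.2e-04). Clec7a, the beta-glucan receptor dectin-1, passed the test with a small difference of -0.47 (adjusted p = 6.7e-04). Msx3, a homeobox gene, had a difference of -0.99, just inside 2-fold. With GC content and length corrected its difference was -1.002 (adjusted p = 1.1e-04 from limma). The Retnla response was 0.12 in C57 and -0.33 in BALB, and neither passed the test (adjusted p = 0.53 and 0.069 from limma).

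Of 16 genes of the IL-4 receptor and STAT6 pathway none was called, which is near the 0.857% and 0.63% of all genes. At an adjusted p alone 3 were smaller and 1 larger, against 10.4% and 5.43% of all genes. Il4ra, the receptor chain, was at 33.2, 38.8 and 33.6 TPM in basal C57 and at 19.5, 18.2 and 18.2 TPM in basal BALB, and its response differed by -0.16 (adjusted p = 0.20 from limma), or -0.23 with GC content and length corrected (adjusted p = 0.032). The Il4ra level was thus lower in BALB, by 0.88 on the log2 scale before IL-4 (BALB minus C57 -0.88, adjusted p = 4.9e-12 from limma). Stat6 had a difference in response of -0.14 (adjusted p = 0.36). In the SOCS family of feedback inhibitors, 2 of 8 genes were called, both smaller, against 0.857% of all genes. Socs1 went from 1.88, 3.16 and 1.47 TPM to 22.4, 21.4 and 23.1 TPM in C57, and from 1.93, 2.20 and 3.09 TPM to 4.71, 9.55 and 6.31 TPM in BALB. Its basal levels overlapped and its IL-4 levels did not, and the difference in response was -1.74 (standard error 0.28, adjusted p = 1.0e-04 from limma). For Socs2 the difference was -1.36.

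Among 31 transcription factors of alternative activation, 5 had a smaller response in BALB (Batf, Batf3, Pparg, Ets2 and Fos) and 3 a larger one (Junb, Cebpb and Klf2), against 0.857% and 0.63% of all genes, with a median of -0.36. These counts rested on single libraries. They were 3 and 0 without BALB basal replicate 1, 4 and 0 without any 1 of BALB IL-4 replicate 2, BALB IL-4 replicate 3, C57 IL-4 replicate 2 and C57 basal replicate 2, and 4 and 1 without C57 IL-4 replicate 1. Without BALB basal replicate 2 or 3 they were 6 and 2, and without C57 basal replicate 1 they were 5 and 1. Rescaling by the median ratio gave 2 and 2. Pparg, the nuclear receptor of fatty acid metabolism, was at 4.08, 3.40 and 4.08 TPM in basal C57 and at 23.2, 23.8 and 23.4 TPM after IL-4, and in BALB at 5.51, 5.51 and 4.97 TPM and at 16.5, 13.7 and 14.2 TPM. Every BALB library was above the C57 libraries before IL-4 and below them after it. The difference of -1.02 was close to the 2-fold threshold (standard error 0.11, adjusted p = 3.2e-07 from limma). Batf, an AP-1 family member, was at 11.8, 8.16 and 10.4 TPM and at 24.6, 26.3 and 32.8 TPM in C57, whereas its BALB libraries overlapped at 12.8, 18.2 and 17.1 TPM before and 18.3, 19.8 and 13.7 TPM after IL-4. Egr2 and Irf4, both induced in C57, passed the p-value with differences of -0.89 and -0.78 that were inside 2-fold. Junb and Cebpb have a GC content of 62.6% and 67.2% and replicates far apart, and neither call held with GC content and length corrected (adjusted p = 0.087 and 0.19 from limma). For Klf2 the difference fell to 0.65, inside 2-fold, with that correction.

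A further list was that of the amino acid response, the program of the transcription factor ATF4, which is made when amino acids are scarce and raises amino acid transport, amino acid synthesis and tRNA charging. The list of 42 genes tested was drawn up from textbook knowledge after these values were seen, so its counts are a description. Of the 42 genes, 14 had a smaller response in BALB, against 0.857% of all genes, and none a larger one. At an adjusted p alone the response was smaller in 33, against 10.4% of all genes, and larger in 1, which was the cystine transporter Slc7a11. The median over the list of the C57 response was 0.51 and of the BALB response 0.02. With rescaling by the median ratio 9 of them were called, and with GC content and length corrected 14. Atf4 itself, on chromosome 15 from 80255184 to 80257545, was at 99.4, 106 and 103 TPM in basal C57 and at 275, 250.3 and 265 TPM after IL-4. In BALB it was at 117, 115 and 117 TPM, and at 128, 123 and 129 TPM after IL-4. The C57 IL-4 libraries stood above the other 9, which lay between 99.4 and 129 TPM. The difference was -1.23 (standard error 0.07, adjusted p = 2.0e-12 from limma).

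In Trib3 and Asns the C57 IL-4 libraries were also above the other 9. Trib3, a pseudokinase, went from 8.42, 4.40 and 6.65 TPM to 29.4, 27.3 and 27.8 TPM in C57, and from 5.38, 5.38 and 5.90 TPM to 7.38, 7.37 and 7.999 TPM in BALB (difference -1.61, standard error 0.17, adjusted p = 1.5e-07). Asns, asparagine synthetase, was at 14.8, 13.9 and 10.7 TPM and at 39.9, 35.1 and 40.6 TPM in C57, against 12.9, 13.4 and 11.9 TPM and 15.6, 12.8 and 12.8 TPM in BALB (difference -1.39, standard error 0.12, adjusted p = 8.0e-09). The BALB libraries of Asns overlapped between conditions. Ddit3, the transcription factor CHOP, rose in C57 with a ratio of mean TPM of 2.10, and its ratio was 0.99 in BALB. The transporters Slc7a5 and Slc7a1 differed by -1.46 and -1.38, and Chac1, which degrades glutathione, by -1.41. In Gadd45a, Nupr1 and Mthfd2 the difference held a fall in BALB, where the log2 fold change was -0.99, -0.70 and -0.41, beside a rise in C57 of 0.44, 0.37 and 0.63. Rars, the tRNA ligase of arginine, rose in both strains, by 1.81 in C57 and 0.77 in BALB. A list of 20 chaperones and foldases of the endoplasmic reticulum was also drawn up after values were seen. Of these, 1 had a smaller response (Pdia4) and 0 a larger one, against 0.857% and 0.63% of all genes. At an adjusted p alone 4 were smaller and 3 larger, against 10.4% and 5.43% of all genes.

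The element that ATF4 binds with C/EBP partners was looked for in promoters, with the letters TGATGNAA on both strands within 250 bases before the start site (RefSeq, GRCm38.p6). It was in the promoter of 9.72% of the genes with a smaller response, of 4.17% of those with a larger one, and of 3.91% of 27025 genes. Among the 36 amino acid response genes with a window it was in 10 (27.8%). As that list was drawn up as the ATF4 program, its share says nothing about the strains. Of the 10 list genes with a match 3 were called, Asns, Chac1 and Nupr1, and Slc7a11, which holds 2 matches, is the member with a larger response. Asns and Chac1 are shown as called members with a match. The windows are chr6:7693210-7693459 (minus strand) for Asns and chr2:119350992-119351241 (plus strand) for Chac1, from the 5' end to the base before the start, with matches of the element in capitals.
Asns: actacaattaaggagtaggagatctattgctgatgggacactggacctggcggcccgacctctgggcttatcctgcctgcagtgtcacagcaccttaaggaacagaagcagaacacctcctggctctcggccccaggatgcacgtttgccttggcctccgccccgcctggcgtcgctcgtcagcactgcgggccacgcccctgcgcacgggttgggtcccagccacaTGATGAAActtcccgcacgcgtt
Chac1: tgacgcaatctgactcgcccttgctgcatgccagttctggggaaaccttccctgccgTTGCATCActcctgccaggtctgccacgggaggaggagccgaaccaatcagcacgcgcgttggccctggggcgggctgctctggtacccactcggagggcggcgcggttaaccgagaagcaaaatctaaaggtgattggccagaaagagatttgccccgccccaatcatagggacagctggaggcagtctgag
No match was in the windows of Atf4, Trib3 and Ddit3, which says only that these letters are not there. The sequence is that of C57BL/6J, the reference strain, and the BALB sequence was not compared.

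**Figure D3:**
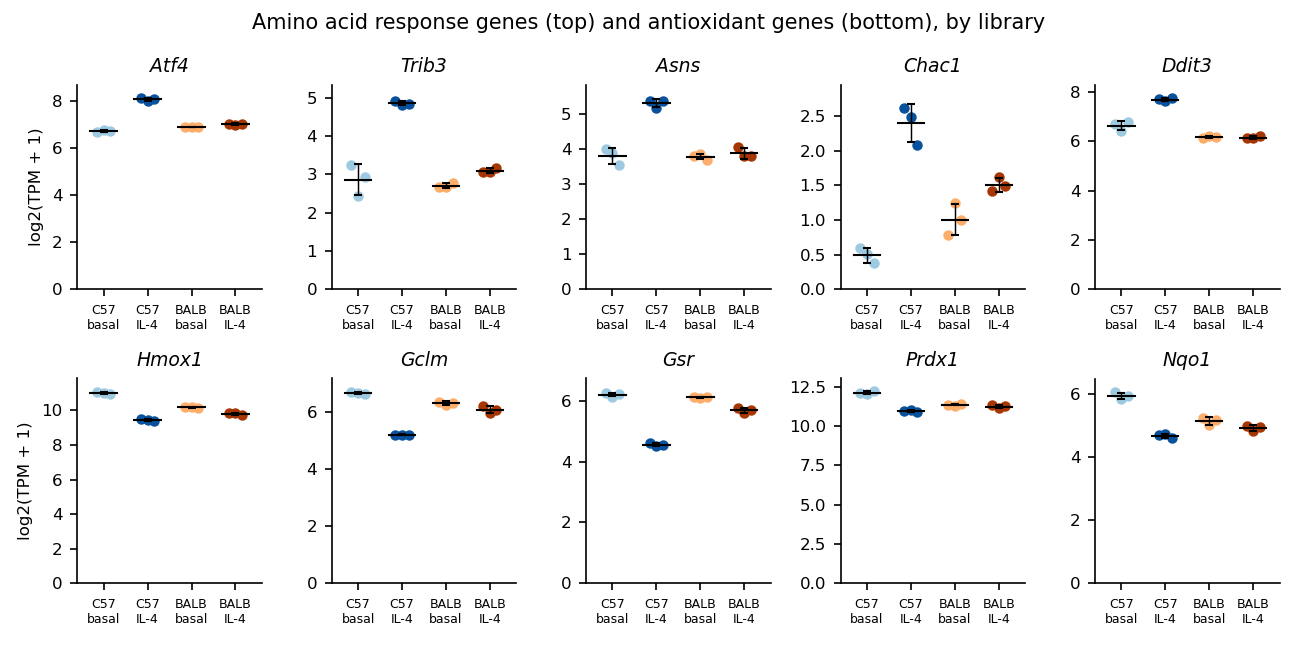
Expression as log2(TPM + 1) in each of the 12 libraries (points; bars, mean and SD of 3 libraries; each panel starts at 0) of 5 amino acid response genes (top) and 5 antioxidant genes (bottom). The C57 IL-4 libraries are the highest in the top panels and the lowest in the bottom panels, and in every panel the means of the BALB groups lie closer together than those of C57.

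Genes of other roles were also among the largest differences. Pgf, the growth factor PlGF of the VEGF family, was at 0.84, 0.40 and 0.68 TPM in basal C57 and at 14.5, 16.8 and 22.9 TPM after IL-4, and in BALB at 1.14, 1.17 and 1.16 TPM and at 1.86, 1.68 and 2.38 TPM. It thus went past 10 TPM in the C57 IL-4 libraries only, and had the largest difference of the genes named by size with a smaller response, at -3.07 (standard error 0.27, adjusted p = 8.2e-09 from limma). Thbs1, thrombospondin 1, a matrix protein that restrains vessel growth, moved in opposite directions. It was at 3.62, 4.81 and 3.97 TPM in basal C57 and at 14.4, 14.3 and 13.8 TPM after IL-4, but in BALB at 5.41, 4.72 and 5.07 TPM and at 1.78, 1.58 and 1.20 TPM. The basal libraries of the strains overlapped and those with IL-4 did not, and the difference was -2.84 (standard error 0.15, adjusted p = 1.1e-12 from limma). In the time-course libraries, given below, Pgf rose by much less in C57 and Thbs1 fell there. In 23 of the 102 genes the C57 response was above 0 and the BALB response below 0.

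Mmp13, a collagenase, went from 3.63, 4.20 and 3.50 TPM to 56.8, 57 and 49.8 TPM in C57, and from 2.04, 1.78 and 1.54 TPM to 7.82, 6.67 and 8.01 TPM in BALB. Dut, which removes dUTP, was at 4.56, 4.00 and 3.93 TPM and at 89.6, 103 and 106 TPM in C57, and at 3.75, 4.35 and 5.44 TPM and at 23.7, 22.8 and 25.1 TPM in BALB. Their differences were -1.93 and -2.10 (standard errors 0.13 and 0.12). Dut therefore rose from overlapping basal levels to a level that was lower in BALB by 2.01 on the log2 scale (BALB minus C57 -2.01). Pla2g5, a secreted phospholipase, and Scimp, an adaptor of immune receptors, differed by -2.15 and -2.10. Timp1, an inhibitor of metalloproteinases, differed by -1.06, and Hbegf, a ligand of the EGF receptor, by -1.80.

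Of 12 costimulatory molecules and PD-1 ligands, 2 were called, Cd83 and Pdcd1lg2, both smaller, against 0.857% of all genes. At an adjusted p alone 7 were smaller, against 10.4% of all genes. Cd83, a costimulatory molecule, was at 4.26, 4.86 and 4.13 TPM in basal C57 and at 28.7, 31.1 and 22.9 TPM after IL-4, and in BALB at 15.5, 16.1 and 16.4 TPM and at 21.2, 21.3 and 22.6 TPM. Its BALB libraries were above those of C57 before IL-4 and below them after it. Pdcd1lg2, the PD-1 ligand PD-L2, was at 0.31, 0.34 and 0.29 TPM and at 9.57, 9.65 and 10.4 TPM in C57, and at 0.55, 0.25 and 0.40 TPM and at 2.14, 1.44 and 1.69 TPM in BALB (difference -2.08, standard error 0.15, adjusted p = 4.1e-10 from limma). The basal libraries overlapped, and the C57 libraries with IL-4 were the highest. Of 8 Fc receptors 2 were called, both smaller, and 4 were smaller at an adjusted p alone, against the same 0.857% and 10.4% of all genes. Fcgr3, a low-affinity receptor of IgG, rose from 212, 197 and 223 TPM to 568, 612 and 537 TPM in C57, and was at 335, 338 and 329.6 TPM and at 413, 384 and 369 TPM in BALB (difference -1.22). Fcgr1, the high-affinity receptor, fell in both strains, by 0.30 in C57 and by 1.41 in BALB on the log2 scale, and its basal level was 70.2 ± 1.93 TPM (SD, n = 3) in C57, against 7.17 ± 0.80 TPM (SD, n = 3) for the BALB libraries.

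The STAT6 type of palindrome, TTC and GAA with 4 bases of any kind between them, was in the promoter window of 6 of 72 genes with a smaller response that had a window (8.33%), of 2 of 48 with a larger one (4.17%), and of 6.76% of all genes. Pdcd1lg2 and Rbp4 are shown because both hold a match, while the response of Pdcd1lg2 was smaller in BALB and that of Rbp4 was not called. The windows are chr19:29410669-29410918 (plus strand) for Pdcd1lg2 and chr19:38125322-38125571 (minus strand) for 1 of 2 starts of Rbp4, with the palindrome in capitals.
Pdcd1lg2: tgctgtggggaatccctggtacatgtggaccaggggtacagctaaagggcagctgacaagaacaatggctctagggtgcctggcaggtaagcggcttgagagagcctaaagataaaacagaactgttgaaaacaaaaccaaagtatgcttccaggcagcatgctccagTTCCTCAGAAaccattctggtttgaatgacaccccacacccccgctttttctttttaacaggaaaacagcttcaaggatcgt
Rbp4: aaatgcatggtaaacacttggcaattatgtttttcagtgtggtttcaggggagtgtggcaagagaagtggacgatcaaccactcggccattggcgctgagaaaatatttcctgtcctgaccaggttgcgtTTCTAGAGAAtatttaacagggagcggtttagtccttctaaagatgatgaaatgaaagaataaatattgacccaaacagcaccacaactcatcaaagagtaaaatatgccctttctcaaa
Clec7a, Retnla, Ccl17 and Chac1 also held a match, and the windows of Ccl8 and Ccl12 held none. A match in these letters is a description and not a binding site.

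In the opposite direction, some antioxidant genes fell in C57 and less so in BALB. NRF2 is the transcription factor that raises enzymes of glutathione, thioredoxin and heme breakdown under oxidative stress. Of 21 genes of this list, 5 had a larger response in BALB (Gclm, Gsr, Hmox1, Prdx1 and Nqo1), against 0.63% of all genes, and none a smaller one past 2-fold, with a median of 0.60. At an adjusted p alone 14 were larger, against 5.43% of all genes, and 1, the glutathione transferase Gstt1, was smaller. The median response was -0.89 in C57 and -0.17 in BALB, so a larger response here is a weaker fall. Hmox1, heme oxygenase 1, was at 2186, 2095 and 2018 TPM in basal C57 and at 722, 710.1 and 676 TPM after IL-4. In BALB it was at 1188, 1162 and 1118 TPM, and at 906, 937 and 860.3 TPM after IL-4. The libraries did not overlap in any of these comparisons, and the strain with the higher level changed with IL-4. The difference was 1.22 (standard error 0.06, adjusted p = 3.8e-13 from limma).

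Gclm, a subunit of the enzyme that starts glutathione synthesis, was at 103, 101 and 98.1 TPM and at 36.1, 36.0 and 35.8 TPM in C57, and at 81.7, 74.6 and 78.8 TPM and at 73.0, 61.9 and 66.2 TPM in BALB. Gsr, glutathione reductase, was at 74.9, 69.4 and 73.9 TPM and at 23.4, 22.0 and 22.4 TPM in C57, and at 69.4, 66.6 and 68.0 TPM and at 53.4, 47.6 and 51.3 TPM in BALB. The ratio of mean TPM of Gclm was 0.36 in C57 and 0.85 in BALB, and that of Gsr 0.31 in C57 and 0.75 in BALB. The differences of Gclm and Gsr were both 1.23 (standard errors 0.10 and 0.07). For Prdx1 and Nqo1 the differences were 1.07 and 1.05, and neither passed the test within BALB (adjusted p = 0.16 and 0.12 from limma). All 5 genes were still called with GC content and length corrected, and with rescaling by the median ratio 6 of the list were. Nfe2l2, the gene of NRF2, had a difference of 0.07.

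The antioxidant response element, with the letters TGACNNNGC on both strands, was in the window of 8 of 18 genes of this list that had one (44.4%) and of 11.5% of all genes. As the list was made of NRF2 and antioxidant genes, its share says nothing about the strains. The element was also in 19.4% of the genes with a smaller response and in 18.8% of those with a larger one. Gclm and Prdx1 are shown as called members with a match, with windows at chr3:122245307-122245556 (plus strand) and chr4:116685349-116685598 (plus strand) and the element in capitals.
Gclm: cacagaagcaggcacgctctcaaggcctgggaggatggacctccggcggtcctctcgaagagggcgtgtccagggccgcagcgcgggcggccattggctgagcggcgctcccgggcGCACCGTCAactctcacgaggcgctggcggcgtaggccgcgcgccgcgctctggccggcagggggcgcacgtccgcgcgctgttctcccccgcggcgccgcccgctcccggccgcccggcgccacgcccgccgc
Prdx1: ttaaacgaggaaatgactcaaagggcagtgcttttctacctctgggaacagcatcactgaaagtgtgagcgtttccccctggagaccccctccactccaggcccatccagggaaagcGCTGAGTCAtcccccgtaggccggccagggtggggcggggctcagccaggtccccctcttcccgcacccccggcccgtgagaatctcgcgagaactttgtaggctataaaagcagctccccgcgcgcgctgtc
No match of these letters was in the window of Nqo1.

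Other genes with a larger response were repressed in C57 and less so in BALB. Slc40a1, the iron exporter ferroportin, was at 15.6, 17.1 and 14.4 TPM and at 3.33, 1.56 and 1.31 TPM in C57, and at 5.75, 5.13 and 5.02 TPM and at 3.46, 3.00 and 3.13 TPM in BALB. The levels of the strains overlapped after IL-4, and the difference in response was 1.92 (standard error 0.20, adjusted p = 2.1e-07 from limma). Acss2, which makes acetyl-CoA from acetate, was at 26.1, 26.9 and 24.7 TPM and at 5.65, 4.52 and 6.14 TPM in C57, and at 60.8, 52.4 and 55.8 TPM and at 40.1, 35.9 and 39.1 TPM in BALB, a difference of 1.53 (standard error 0.12, adjusted p = 6.8e-10 from limma). Here BALB was the higher strain in both conditions. Clec4n, the receptor dectin-2, fell in both strains, by 2.33 in C57 and by 1.18 in BALB on the log2 scale. Pdgfb, a growth factor, fell by 1.24 in C57, and its BALB libraries overlapped between conditions (difference 1.13, and 0.87 with GC content and length corrected). S100a8, a calcium-binding protein of neutrophils, was at 94.0, 87.1 and 111 TPM and at 14.6, 16.1 and 12.7 TPM in C57, and at 48.8, 56.7 and 53.2 TPM and at 17.0, 16.0 and 17.7 TPM in BALB, a difference of 1.08, and of 0.90 with GC content and length corrected. S100a8 is itself 1 of the 11 neutrophil and precursor markers and makes up most of their sum, so that sum is no separate measure of it.

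Of 25 genes of cholesterol and fatty acid synthesis tested none was called. At an adjusted p alone 13 had a larger response in BALB, against 5.43% of all genes, and 0 a smaller one, with a median of 0.38. The 13 were 8 with only the 12 libraries, and between 9 and 14 without 1 library. The guanylate-binding proteins and other interferon-inducible GTPases had a median of -0.52, with 10 of 15 smaller at an adjusted p alone, against 10.4% of all genes, and none past 2-fold. This count was 3 without BALB basal replicate 1, 6 without C57 IL-4 replicate 1 and 4 with only the 12 libraries, and with a pseudocount of 0.1 TPM 2 genes were past 2-fold. Of 37 interferon-stimulated genes 1 was smaller (Ifi44l) and 1 larger (Cxcl10), against 0.857% and 0.63% of all genes, with a median of -0.37. At an adjusted p alone 13 were smaller and 1 larger, against 10.4% and 5.43% of all genes. With only the 12 libraries these were 10 and 1. Ifi44l was listed at 0 or near 0 in all 6 C57 libraries, with a highest value of 0.105 TPM, and was at 18.0, 14.7 and 10.0 TPM before and at 5.70, 4.17 and 3.56 TPM after IL-4 in BALB, so its difference of -1.48 is a fall in BALB from a level that C57 did not have. Without the amino acid response and endoplasmic reticulum lists, 20 of 33 lists had at least 1 called member, and 34 of their 532 genes tested were smaller and 14 larger, against 0.857% and 0.63% of all genes.

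**Figure D4:**
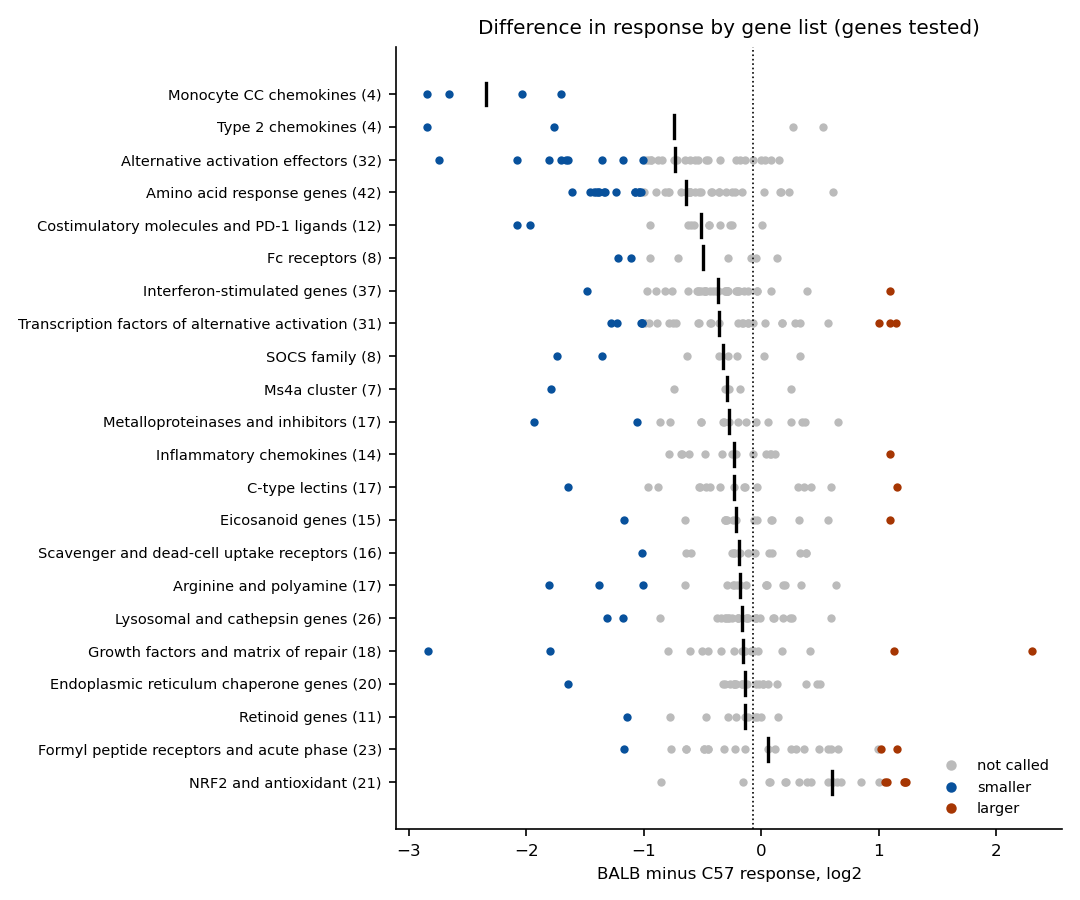
BALB minus C57 difference in response (log2, x axis) of each gene tested in the lists with a called member, with the number tested in brackets (points, genes; black bars, list medians; dotted line, median of all genes tested). The monocyte CC chemokines lie farthest to the left and the NRF2 and antioxidant genes farthest to the right; the amino acid response and endoplasmic reticulum lists were added after values were seen.

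The genes with the largest positive differences were of another kind. Scand1, a small nuclear protein, was at 31.9, 68.0 and 21.9 TPM in basal C57 and at 12.4, 7.41 and 17.0 TPM after IL-4, and in BALB at 0.20, 1.41 and 2.78 TPM and at 5.08, 67.7 and 36.7 TPM. Replicates of 1 group differed by over 10-fold, with BALB IL-4 replicate 1 far below replicates 2 and 3, and the difference of 5.05 had a standard error of 1.05 (adjusted p = 1.4e-03 from limma). Tpt1, a translationally controlled protein, had the same order, at 63.4, 128 and 40.7 TPM and at 28.7, 18.4 and 32.3 TPM in C57, and at 8.52, 12.5 and 14.97 TPM and at 14.98, 79.9 and 60.03 TPM in BALB. Gdf15, a stress cytokine, was at 81.9, 116 and 82.1 TPM and at 32.9, 25.4 and 34.7 TPM in C57, and at 3.51, 6.06 and 8.91 TPM and at 6.81, 12.9 and 12.9 TPM in BALB. Its basal level was thus lower in every BALB library than in any C57 library, and its BALB libraries overlapped between conditions. Gdf15 fell in C57 here, but rose in the C57 time-course libraries. For Ppp1r35, H2afj, Crlf2, Tpgs1, Rnaseh2c, Chchd10 and Jund the differences were between 1.33 and 1.94, with standard errors between 0.24 and 0.43.

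The GC content of the genes moved with this direction. The median GC content of the longest transcript was 54.5% in genes with a larger response, 49.1% in those with a smaller one and 49.8% in all genes tested. It was over 60% in 22 of the 73 larger genes with a value (30.1%), against 4.27% of all. Their median length was 1225 bases, against 2631 for all genes. When each library was corrected for GC content and length, 50 of the 75 genes were still called larger and 98 of the 102 still smaller, with 50 and 118 genes called in all (0.42% and 0.991%). The median GC content was 53.0% in the 50 and 60.3% in the 25 that were lost, among them Tpgs1, Jund, Cebpb, Junb, Klf2, Pdgfb and S100a8. Scand1, Tpt1, Gdf15, Hmox1, Gclm, Acss2 and Slc40a1 were kept. Without BALB IL-4 replicate 1, 114 genes were larger and 109 smaller, and 72 of the 75 were among the 114. The part of GC content and of single libraries in these levels was not tested beyond these fits.

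**Figure D5:**
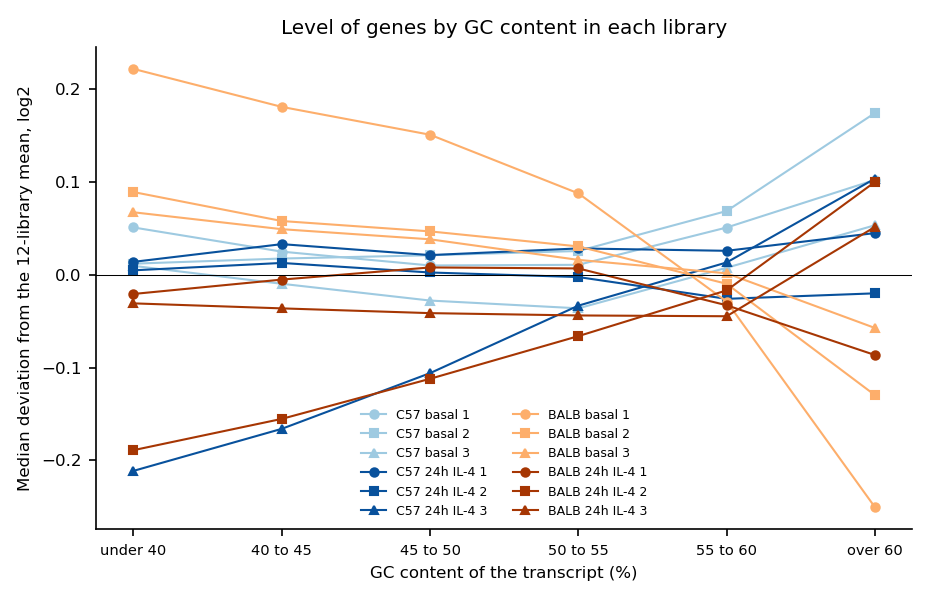
Median deviation of genes with a mean of at least 5 TPM from the mean over the 12 libraries (y axis, log2) in bins of transcript GC content (x axis, percent), 1 line per library with colours for groups and symbols for replicates 1 to 3. In the bin over 60%, the 3 basal BALB libraries, BALB IL-4 replicate 1 and C57 IL-4 replicate 2 are below 0, and the other 7 libraries are above it.

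The difference in response was read against the levels of the strains before and after IL-4, with all calls on the log2(TPM + 1) scale. In 57 of the 102 genes with a smaller response, BALB and C57 passed no threshold at the basal level, and BALB was more than 2-fold lower after IL-4. Over all genes tested, BALB was lower in 2.17% and higher in 2.65% at the basal level, and lower in 3% and higher in 2.39% after IL-4. In 14 genes BALB was more than 2-fold higher at the basal level and not different at that threshold after IL-4. Ptgs2, the inducible cyclooxygenase, was 1 of the genes with a higher basal level, at 29, 25.8 and 27.1 TPM in basal BALB against 8.28, 6.19 and 7.96 TPM in C57, and after IL-4 at 30.8, 27.9 and 33.5 TPM against 20.8, 20.9 and 19.1 TPM. Ctsl, the lysosomal protease cathepsin L, went from 288, 295 and 296 TPM to 977, 978 and 906 TPM in C57, and from 1236, 1132 and 1150 TPM to 1539, 1403 and 1651 TPM in BALB. All basal BALB libraries of Ctsl were above the C57 libraries with IL-4. On this scale only 4 of the 102 genes were called more than 2-fold lower in BALB at the basal level, namely Ccl7, Ccl12, Ccl2 and Fcgr1. The scale narrows ratios of low values. Basal TPM of Ch25h, Flt1 and Mmp13 was also lower in every BALB library than in any C57 library. Of the 75 genes with a larger response, 33 were more than 2-fold lower in BALB at the basal level, and 29 of these had no call after IL-4. A basal difference is part of the same contrast and is no independent result.

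The C57 side was compared with the time-course libraries, which the contrast did not use, 2 basal and 2 after 24 hours of IL-4. Of the 102 genes, 96 were tested there, and 89 had a log2 fold change above 0 (92.7%, against 47.7% of 11463 genes), with a median of 1.63. Of the 75 genes with a larger response, 53 of 70 were below 0 (75.7%, against 51.8%), with a median of -0.33. The amino acid response genes were high there too, with 3.18 for Trib3, 3.05 for Asns and 1.85 for Atf4, and Hmox1, Gclm and Gsr were at -1.72, -1.44 and -1.63. Several of the named genes were not alike. The time-course fold change of Thbs1 was -1.05 against 1.57 in the 5-strain libraries, that of Gdf15 was 1.32 against -1.55, and those of Pgf and Ccl8 were 0.58 and 1.09 against 3.53 and 4.23. Thbs1 thus fell there in C57, as it did in BALB, and Gdf15 rose. The differences from BALB given above for these genes therefore rest on the 5-strain C57 libraries alone. No BALB libraries of the time course were used here, so the BALB side has no such comparison.

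In the 3 other strains of the table, the median response of the 102 genes was 0.31 in NOD, 0.52 in PWK and 0.51 in SPRET, against 0.43 in BALB and 1.77 in C57. The NOD response was nearer to that of C57 than to that of BALB in 14 of the 102 genes (13.7%), that of PWK in 39 and that of SPRET in 34, while over all genes tested the shares were 55.04%, 56.8% and 57.6%. As the genes were chosen for a difference between C57 and BALB, this is a description. Among the amino acid response genes, Asns was at -0.03 in NOD, 0.08 in PWK and 0.80 in SPRET, and Atf4 at 0.11, -0.19 and 0.63. For Ccl8 the fold change was 5.13 in PWK, above the 4.23 of C57, and 2.58 in NOD and 1.78 in SPRET. Socs1 had 5.70 in SPRET, above C57, and -0.21 in NOD.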

How the data were processed

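RNA-seq of poly(A) RNA was made from BMDMs of C57 and BALB mice, with 3 libraries per strain and condition. The authors aligned 75-bp single-end reads with STAR 2.5.3 to strain-specific genomes, moved the alignments onto mm10 by MMARGE 1.0, and obtained TPM for each gene by HOMER 4.11.1. The strand setting is not given in the sources used here. The deposited TPM values are not counts, and the authors' own comparisons (fold changes and p-values from DESeq2) in the same table were not used. The tables hold no counts per gene, so no counting intervals were computed.

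A linear model (limma 3.58.1, R 4.3.3) was fitted to log2(TPM + 1), in 1 model of the 29 libraries of 5 strains with a mean per group and an empirical Bayes trend. The test covered genes that reached 1 TPM in 2 or more libraries, and p-values were adjusted over all of them by the Benjamini-Hochberg method. The contrast was tested on simulated data first. Genes were called at an adjusted p under 0.05 and a difference over 2-fold. The genes named by size are the 12 largest called differences in each direction with responses that do not overlap. Each had a mean of at least 10 TPM in a group. Also named were up to 6 called members of each list and 18 genes fixed by name. For the amino acid response and endoplasmic reticulum lists all called members were named. The members and lists were chosen with earlier results of these data known, and the amino acid response and endoplasmic reticulum lists after these values were seen. Promoters came from RefSeq for GRCm38.p6, and transcripts from GENCODE. Alternatives were other scalings, pseudocounts, filters, priors, blocks and fold thresholds, and leaving out each library. The corrections for GC content and length, by loess curves of each library over 97.6% of genes with a value, were added after seeing the data. Figures were drawn with matplotlib 3.10.9.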

Additional observations from a re-analysis of the deposited data

Results flagged for a closer look

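The responses of C57 and BALB BMDMs differed by the limma interaction contrast past 2-fold in 102 genes with a smaller and 75 with a larger response in BALB. Among the genes named by size with a smaller response, the difference on the log2 scale was -3.07 for Pgf, -2.85 for Ccl8, -2.84 for Thbs1, -2.75 for Ch25h, -2.66 for Ccl7, -2.15 for Pla2g5, -2.10 for Scimp, -2.10 for Dut, -2.03 for Ccl12, -1.97 for Cd83, -1.93 for Mmp13 and -1.81 for Slc7a2. In the other direction it was 5.05 for Scand1, 3.15 for Tpt1, 2.30 for Gdf15, 1.94 for Ppp1r35, 1.93 for H2afj, 1.92 for Slc40a1, 1.81 for Crlf2, 1.54 for Tpgs1, 1.53 for Acss2, 1.52 for Rnaseh2c, 1.38 for Chchd10 and 1.33 for Jund. For Pgf, Ccl8, Thbs1 and Gdf15 the C57 response was of another size or sign in the time-course libraries. Groups of 3 libraries are too small for a test of single outlying libraries.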

How the results depend on the processing

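The counts of 102 smaller and 75 larger responses depended on the pseudocount and the fold threshold. Adding 0.1 TPM before the log gave 182 and 114, adding 5 TPM gave 44 and 41, and a 1.5-fold threshold gave 404 and 273. Leaving out 1 library gave between 93 and 118 smaller and between 60 and 114 larger genes, the highest without BALB IL-4 replicate 1. Rescaling by the median ratio gave 82 and 93, and quantile normalization 86 and 97, so that smaller responses made up 46.9% and 47.0% of the calls, against 57.6%. At an adjusted p alone these shares were 47.6% and 51.8%, against 65.6%. Smaller responses made up 70.2% with GC content and length corrected, a correction chosen after seeing the data. The median C57 response in the time-course libraries was 2.06 and 1.17 for smaller genes with the pseudocounts of 0.1 and 5 TPM, and between 1.63 and 1.74 without 1 library. For larger genes it was between -0.55 and -0.31 without 1 library. The deviations of same-numbered basal and IL-4 libraries had r between -0.09 and 0.07 in C57 and between 0.09 and 0.33 in BALB. For differently numbered libraries r was between -0.18 and 0.12 in C57 and between -0.30 and 0.21 in BALB. Whether replicate numbers pair the libraries was not settled by these values, and the main model used no pairing. With the replicate block within strain the counts were 105 and 78, and with the block across groups 103 and 76. Of 88 named genes, 75 kept their side of the test in all alternatives that could be computed. The 1 reversal among them that involved a passed test was Rbp4, whose difference was 0.60 when 5 TPM were added and -1.76 when 0.1 TPM was added. The cause was not tested. Changes of sign without a passed test, as for Ccl22 and Arg1, were not counted as reversals. Chil3 passed with the replicate block within strain (adjusted p = 0.0089 from limma). Totals of 7.02 M to 21.3 M tags limit the values below 1 TPM.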
